A study of Mus musculus with 30 samples.

Results

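The addition of interleukin 12 (IL-12) to interleukin 2 (IL-2) was examined in splenic CD4 T cells of male C57Bl/6 mice aged 6 to 10 weeks. Of the 30 arrays of the series, 6 make up this comparison: those titled CD4 with IL-2 and IL-12, lettered D, E and L, and those titled CD4 with IL-2 alone, with the same letters. Both groups received IL-2 at 4 ng/ml, and the first also received IL-12 at 5 ng/ml. Beside them stand 3 further groups of 3 arrays: CD4 cells with the same IL-2 and IL-4 at 10 ng/ml, and CD8 cells given IL-2, without or with IL-12, at those doses. Fresh CD4 and fresh B cells give reference levels. Any stimulus of the T cells beyond the cytokines, and the culture time of these 6 arrays, are not stated in the labels or file headers. Whether the 3 arrays of a group are separate mice or cultures is not labelled either, and p-values here describe the spread from array to array, which may be technical. A custom array of genes for glycan synthesis, glycan recognition, cytokines, chemokines and adhesion was used, and 746 probe sets were tested, 450 of which carry the names of 375 genes.

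IL-12 is made by dendritic cells and macrophages and acts through a receptor of the chains IL-12Rβ1 and IL-12Rβ2, which signals through the transcription factor STAT4. In activated CD4 T cells it favours T helper 1 differentiation, with interferon gamma production and the chemokine receptors and selectin ligands that direct cells to inflamed tissue. IL-4, acting through STAT6, favours the opposing T helper 2 fate, marked by IL-4, IL-5 and IL-13 and by the receptors Ccr4 and Ccr8. IL-2, present in every cultured group here, drives growth through a receptor that shares its beta chain with the IL-15 receptor and its gamma chain with the IL-7 receptor.

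With IL-12, Timp1 rose in CD4 cells, and it was the single probe set of 746 past the threshold (0.134%), an adjusted p under 0.05. Timp1 encodes tissue inhibitor of metalloproteinases 1, a secreted inhibitor of the proteases that degrade extracellular matrix. Both IL-12 receptor chains, the chemokines Ccl3, Ccl4 and Ccl5, the receptor gene Cxcr3 and the T helper 2 genes Il4, Il13, Ccr4 and Ccr8 did not pass. The 71 measured glycan genes cover glycan synthesis, modification and degradation, nucleotide sugar and glycolysis genes and proteoglycan core proteins. None of them passed, against the background of 0.134%. An unadjusted p under 0.05 was found for 3 of the 71, against 28 of all 746 probe sets (3.75%). Because the median standard error was 0.47 on the log2 scale, changes of about 1 log2 unit in single genes were mostly not detectable with these arrays.

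The Timp1 promoter is shown because Timp1 is the gene that carries the result. The Il4 promoter is shown as that of the gene with the largest drop, among named genes, between the IL-4 and the IL-12 condition. Each window holds 300 bases, 250 before the transcription start and 50 from it onward, from RefSeq on build GRCm38.p6, read 5′ to 3′ on the gene's strand. Timp1 lies on the plus strand at chrX:20869916-20870215 and Il4 on the minus strand at chr11:53618616-53618915, the farther upstream of 2 windows listed for it. Capitals mark the first transcribed base and any match to 4 motifs.
Timp1: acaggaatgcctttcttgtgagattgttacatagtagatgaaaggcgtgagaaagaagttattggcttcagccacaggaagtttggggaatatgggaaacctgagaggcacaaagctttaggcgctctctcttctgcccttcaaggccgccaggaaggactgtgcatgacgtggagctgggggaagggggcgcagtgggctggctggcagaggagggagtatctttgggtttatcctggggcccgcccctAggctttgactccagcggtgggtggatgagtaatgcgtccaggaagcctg
Il4: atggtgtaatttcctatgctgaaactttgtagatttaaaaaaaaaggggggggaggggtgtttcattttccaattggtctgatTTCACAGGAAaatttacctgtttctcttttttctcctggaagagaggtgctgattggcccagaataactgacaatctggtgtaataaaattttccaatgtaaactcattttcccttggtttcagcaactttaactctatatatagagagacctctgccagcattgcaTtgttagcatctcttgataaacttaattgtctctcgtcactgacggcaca
The motifs, searched on both strands, were the palindromes bound by STAT factors with a 3-base spacer (TTCNNNGAA) or a 4-base spacer (TTCNNNNGAA), the AP-1 site TGANTCA and the T-box sequence TCACACCT. No motif overlapped another in these windows. The Timp1 window held none of the 4, and the Il4 window held 1 match, to the STAT palindrome with the 4-base spacer, which starts 167 bases before the transcription start. Of 32851 mouse promoter windows of the same length, 8.3% held the 3-base form, 6.95% the 4-base form, 7.81% the AP-1 site and 1.28% the T-box sequence.

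The labelled cell type was compared with its markers. Cd4 itself is not among the genes named here. Among T-cell markers, Cd2, an adhesion receptor of T cells, ran from 9516.9 to 10931.5 on the IL-2 arrays and from 7880.1 to 12719.8 on the IL-12 arrays, against 1552.8 to 3003.2 in fresh B cells. Il7r lay at 1365.8 or more on these 6 arrays, against 116.1 to 332.9 in fresh B cells. The 4 measured of 11 B-cell markers (Cd22, Fcer2a, Cxcr5 and Cd72) summed to between 811.8 and 1074.7 with IL-2 and between 554.9 and 694.7 with IL-12, against 20352.7 to 25171.2 in fresh B cells. All 3 IL-12 arrays thus lay below all 3 IL-2 arrays in this sum, although none of the 4 genes passed the threshold. The 4 measured of 13 myeloid and dendritic markers (Itgax, Siglec1, Cd33 and Siglece) summed to between 284.0 and 630.4 with IL-2 and between 158.2 and 341.1 with IL-12, and the groups overlapped. The 3 measured of 12 NK-cell and CD8 markers (Klrd1, Itgae and Itga2) summed to between 856.9 and 1223.1 with IL-2, between 1045.4 and 2106.3 with IL-12 and between 5491.2 and 9795.1 in CD8 cells with IL-2. The 6 measured of 14 platelet, endothelial and stromal markers (Pf4, Itga2b, Itgb3, Sele, Vcam1 and Madcam1) summed to between 774.2 and 1002.8 with IL-2 and between 638.7 and 987.4 with IL-12. No marker was listed at 0. In bulk RNA, fewer cells of a type and less RNA per cell cannot be told apart, and the part of the B-cell marker difference in the results below was not tested.

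The 3′/5′ signal ratio of the control transcripts was similar on the 6 arrays, from 0.949 to 0.987 for Actb and from 0.746 to 0.796 for Gapdh. Median signals were 144.05, 144.3 and 151.1 on the IL-2 arrays D, E and L. They were 141.45, 132.95 and 141.4 on the IL-12 arrays, all 3 below every IL-2 array. Same-letter arrays of both groups shared hybridisation run, chip lot and scan day, with D and E on one day and L on another. Values within a letter are therefore within-batch values and are given as such. Over all 746 probe sets the median log2 difference was 0.0054 in the main fit, which does not rescale the arrays. After median centring it was 0.08, so differences close to 0 depend on the scaling.

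The Timp1 signal was 73.4, 44.6 and 60.3 on the IL-2 arrays D, E and L. It was 834.0, 688.3 and 333.7 on the IL-12 arrays of the same letters. Every IL-12 array lay well above every IL-2 array, and array L was the lowest of the IL-12 group. On the log2(signal + 16) scale the rise was 2.99 ± 0.55 (SE, n = 3 against 3), with a 95% confidence interval from 1.85 to 4.14, a 7.97-fold change on that scale (limma, adjusted p = 0.0111). Within the letters D, E and L it was 3.25, 3.54 and 2.20. The call rests on the spread shared by all 30 arrays: with the 6 arrays alone the rise was equal and its adjusted p was 0.105. It was also lost when IL-2 array E (adjusted p = 0.0566), IL-2 array L (0.0623), IL-12 array D (0.154) or IL-12 array E (0.0525) was left out, with rises of 2.74 to 3.38 over all 6 omissions.

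Fresh CD4 cells gave Timp1 signals of 47.9, 56.4 and 27.4. The IL-2 arrays overlapped this range, and their log2 difference from fresh cells, 0.35 ± 0.55, did not pass. CD4 cells with IL-2 and IL-4 gave 160.0, 130.1 and 67.9, of which the lowest lies below the highest IL-2 array. CD8 cells with IL-2 gave 337.8, 161.2 and 205.4, above every CD4 array with IL-2 alone. CD8 cells with IL-2 and IL-12 gave 1169.6, 581.9 and 945.5, which overlap the IL-12 arrays of CD4 cells. Of these 6 T-cell groups, the IL-12 groups held the highest Timp1 means in each subset, as the plot of array signals shows.

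**Figure D1:**
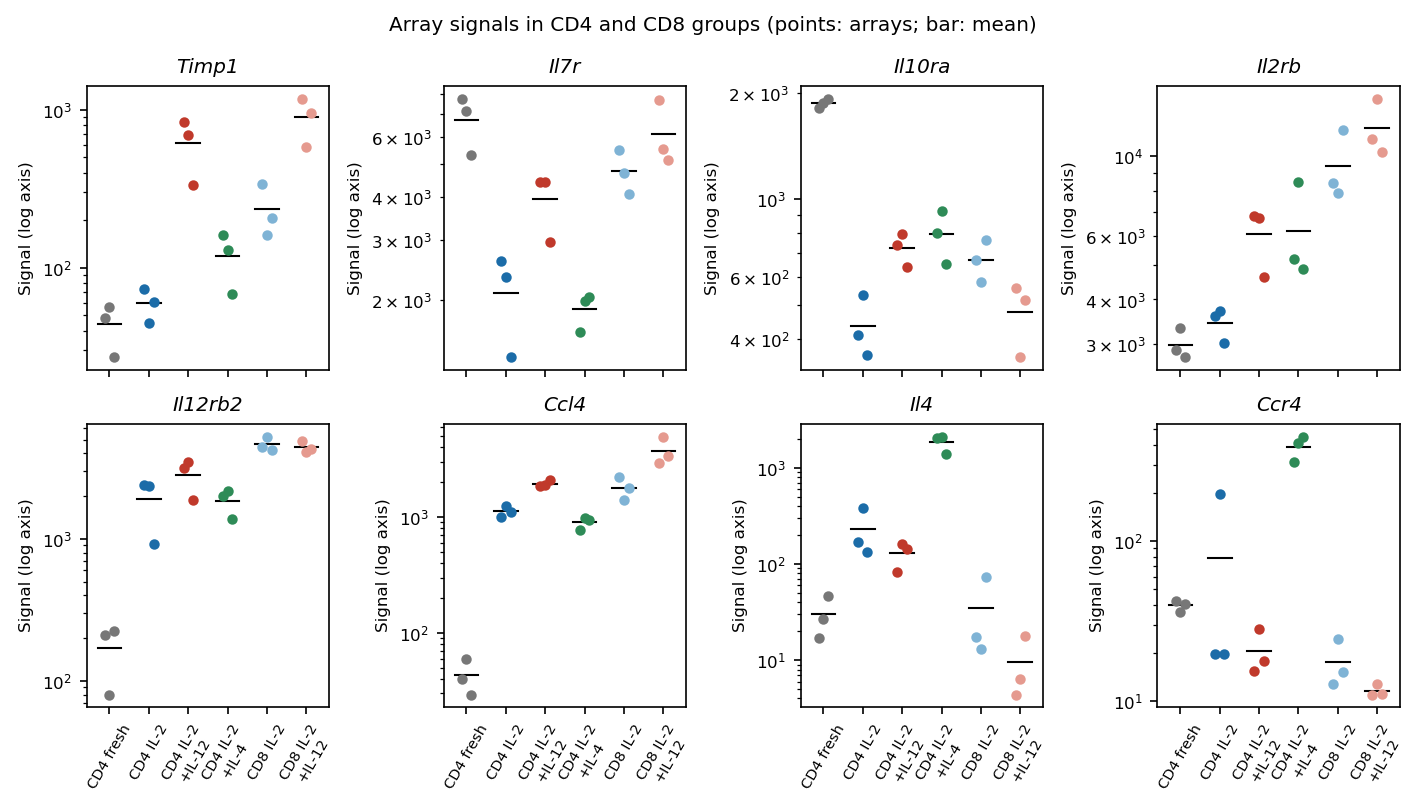
Signal per array (log axis, arbitrary intensity units, each panel with its own range) of 8 genes in fresh CD4 cells, in CD4 cells with IL-2, IL-2 and IL-12 or IL-2 and IL-4, and in CD8 cells with IL-2 or IL-2 and IL-12; points are arrays (3 per group) and bars are means. For Timp1 the 3 CD4 arrays with IL-12 sit between 333.7 and 834.0, all above the 3 with IL-2 alone, which reach 73.4 at most.

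Timp1 included, 28 probe sets (3.75%) had an unadjusted p under 0.05, 15 higher (2.01%) and 13 lower (1.74%) with IL-12. In 83 probe sets (11.1%) the 3 arrays of one condition did not overlap the 3 of the other, 37 higher (4.96%) and 46 lower (6.17%). The next probe set by p, D83648_s_at, has no gene name here. Its signal was 366.7, 272.6 and 248.3 with IL-2 and 877.4, 513.3 and 1026.2 with IL-12. The groups did not overlap, and the log2 difference was 1.36 ± 0.30 (limma, adjusted p = 0.0543), just short of the threshold. It passed when IL-2 array D (adjusted p = 0.0449) or IL-12 array E (0.0223) was left out, and did not without IL-2 array E (0.170), IL-2 array L (0.490), IL-12 array D (0.435) or IL-12 array L (0.374). It also passed with pseudocount 64 (0.0128), without the dimmest 40% of probe sets (0.0225) and with 1 value per gene (0.0437). With all arrays it passed with the letter as a random (0.0290) or fixed block (0.0406). In the other alternatives run it did not pass (0.0606 to 0.579). A log2 difference of at least 1 within each of the 3 letters occurred in 2 probe sets upward (0.268%), Timp1 and the unnamed K00083_at, and in 3 downward (0.402%). The 3 downward ones were Ccl12, a chemokine for monocytes, Emcn, an endothelial sialomucin, and the unnamed X84727_s_at. Their mean signals were 119.2, 64.1 and 187.0 with IL-2 and 37.0, 19.7 and 34.7 with IL-12, and the median of the probe set means was 120.4. These 5 were singled out after their values were seen.

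**Figure D2:**
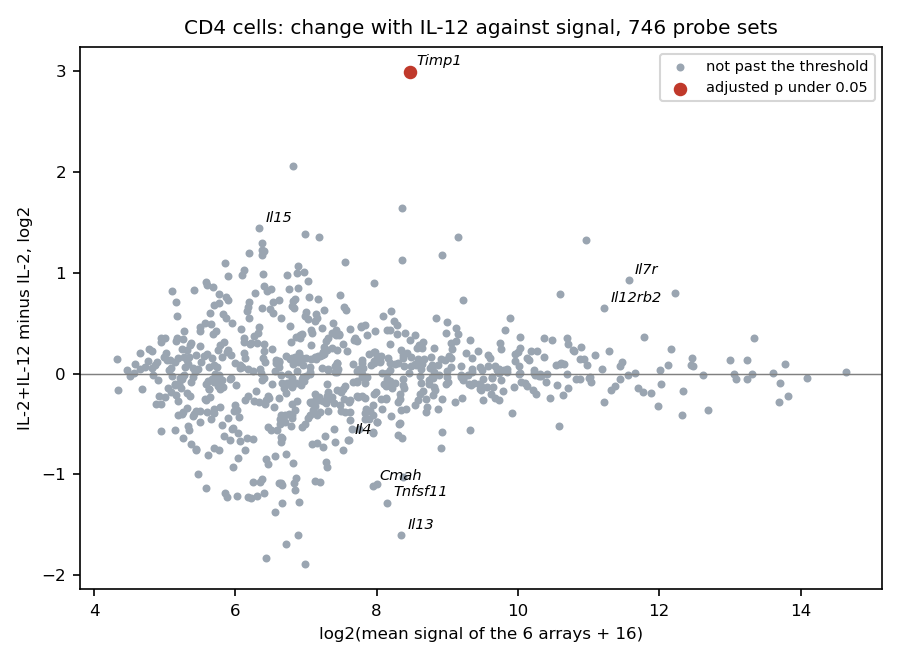
Log2 difference between IL-2 plus IL-12 and IL-2 alone in CD4 cells (vertical axis) against the log2 of the mean signal of the 6 arrays plus 16 (horizontal axis) for 746 probe sets; the red point passed the adjusted p threshold of 0.05 and named grey points did not. Timp1 stands at 2.99, and the differences scatter more widely among dim probe sets, with an SD of 0.58 among the 373 dimmer and 0.40 among the 373 brighter probe sets.

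Of the IL-12 receptor and its signalling genes, 2 of 13 listed were measured, and neither passed. Il12rb2, the signalling chain of the receptor, gave 2384.3, 2379.0 and 926.9 with IL-2. With IL-12 it gave 3176.2, 3478.1 and 1868.8. The IL-12 array was the higher within each letter, by 0.41 log2 units or more, but array L was low in both groups and the groups overlapped. The log2 difference was 0.65 ± 0.37, with an interval from -0.12 to 1.42. Il12rb1, the chain shared with the IL-23 receptor, differed by 0.09 ± 0.51, with an interval from -0.96 to 1.13. Fresh CD4 cells held 211.0, 80.1 and 222.9 for Il12rb2, below every cultured CD4 array shown.

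Among genes of IL-2, its receptor family and related cytokines, 6 of 12 were measured, none passed, and 5 of 6 had differences above 0 (median 0.77, against 0.0054 over all probe sets). Il7r, the receptor chain that supports survival of resting T cells, gave 2599.9, 2338.7 and 1365.8 with IL-2. With IL-12 it gave 4424.8, 4422.1 and 2957.7, so that the lowest IL-12 array exceeded the highest IL-2 array. The log2 difference was 0.93 ± 0.36, with an interval from 0.18 to 1.68 (limma, adjusted p = 0.935). Il2rb, the signalling beta chain for IL-2 and IL-15, gave 3591.7, 3722.9 and 3029.0 with IL-2 and 6842.4, 6740.6 and 4613.6 with IL-12. These groups did not overlap either, and the difference was 0.79 ± 0.51. Il15, a cytokine for memory and NK cells, was dim, at no more than 70.4 with IL-2 and 74.3, 85.0 and 134.9 with IL-12. Its difference of 1.44 ± 0.49 had an adjusted p of 0.713 by limma.

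Both measured genes of the IL-10 group, of 8 listed, had differences above 0, and neither passed. Il10ra, the ligand-binding chain of the receptor for the anti-inflammatory cytokine IL-10, gave 409.6, 532.5 and 360.3 with IL-2. With IL-12 it gave 738.4, 795.7 and 642.1, again without overlap. Its difference was 0.73 ± 0.29 (limma, adjusted p = 0.935). A second probe set of Il10ra differed by 0.48 ± 0.35 and its groups overlapped. Il10 itself gave 779.3, 1076.5 and 826.5 with IL-2 and 1134.5, 1431.9 and 925.6 with IL-12, a difference of 0.37 ± 0.36.

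T helper 1 effector and surface genes showed no call among 9 measured of 17, with 5 differences above 0 and a median of 0.22. Ccl4, a chemokine that attracts effector T cells and monocytes, was the 1 of these 9 genes whose arrays did not overlap, against 83 of all 746 probe sets (11.1%). It stood at 996.2, 1250.4 and 1116.3 with IL-2 and 1859.4, 1901.5 and 2081.8 with IL-12. Its difference was 0.79 ± 0.40, with an interval from -0.04 to 1.62. The related chemokine genes Ccl3 and Ccl5 differed by 0.35 ± 0.54 and -0.05 ± 0.52. Il18rap, the accessory chain of the IL-18 receptor, differed by 1.07 ± 0.58, with array E going the other way (-0.66) from D and L (1.89 and 1.97). Klrd1, which encodes the CD94 chain of lectin-like receptors on NK and CD8 cells, differed by 0.55 ± 0.43. Cxcr3, the receptor for interferon-induced chemokines, differed by -0.10 ± 0.62, and Cxcr6, the receptor for Cxcl16, by 0.22 ± 0.37. Fasl, the death ligand of cytotoxic cells, gave -0.13 ± 0.31, and the lymphotoxin genes Lta and Ltb gave -0.03 ± 0.42 and 0.00 ± 0.25. For Ltb the interval from -0.52 to 0.53 lies within 1 log2 unit of 0, and changes inside it are not excluded. That of Cxcr3, from -1.37 to 1.17, admits more than a doubling in either direction. Interferon gamma is not named among the probe sets here. Because 296 probe sets stayed unnamed, this does not show that it was not measured. Of the interferon-induced chemokines and the receptor chains for type I interferon and interferon gamma, 6 of 7 listed genes were measured, none passed, and 5 of the 6 intervals lay within 1 log2 unit of 0. Cxcl9, a ligand of Cxcr3, had the largest difference of the 6, -0.75 ± 0.42, and was the 1 of them whose arrays did not overlap, at 67.1, 20.7 and 31.4 with IL-2 and 11.8, 18.4 and 15.5 with IL-12. Cxcl10, another ligand of Cxcr3, differed by 0.09 ± 0.36, and Ifngr1, the ligand-binding chain of the interferon gamma receptor, by 0.08 ± 0.27.

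T helper 2 genes showed no call among 6 measured of 12, with 4 differences below 0 and a median of -0.61. Il13, a T helper 2 cytokine that acts on epithelium and macrophages, gave 559.7, 472.4 and 293.6 with IL-2 and 296.5, 207.3 and 28.5 with IL-12. The IL-12 array was the lower within each letter, but the highest IL-12 array exceeded the lowest IL-2 array, and the difference was -1.60 ± 0.80 (interval -3.25 to 0.04). Il4 gave 168.1, 382.9 and 132.4 with IL-2 and 82.5, 162.1 and 141.4 with IL-12, a difference of -0.66 ± 0.44. Its second probe set differed by -1.08 ± 0.47. Ccr4, a receptor of T helper 2 and skin-homing cells, gave 19.7, 195.6 and 19.8 with IL-2 and 15.4, 28.4 and 17.7 with IL-12. IL-2 array E, the highest for Il4, Ccr4 and the second Il4 probe set, sets most of the Ccr4 difference of -0.84 ± 0.41, which was -2.25 within letter E and -0.19 and -0.09 within D and L. Ccr8, another T helper 2 receptor, was lower without overlap, at 675.7, 864.4 and 705.3 with IL-2 and 537.0, 536.1 and 436.9 with IL-12. That difference was -0.56 ± 0.48. The other measured genes of the list lay above 0: Il5, a cytokine for eosinophils, at 0.06 ± 0.50 and Ccr3, an eotaxin receptor, at 0.55 ± 0.64.

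Other genes whose mean with IL-2 lay above the median probe set and whose IL-12 arrays all lay below the IL-2 arrays did not pass. Besides those detailed next, they include Sdc4 (-0.87 ± 0.63), Cxcl15 (-0.64 ± 0.36), Itgb3 (-0.49 ± 0.36) and Tcea1. In the upward direction Cnih2, S100a10, Hbegf and Fibp also had arrays that did not overlap, and did not pass. Tnfsf11, which encodes RANKL, a TNF-family ligand for osteoclast and dendritic cell growth, gave 311.6, 513.8 and 324.6 with IL-2 and 204.9, 93.9 and 153.8 with IL-12, a difference of -1.28 ± 0.58. Icam2, an adhesion ligand of the integrin LFA-1, gave 1551.4, 1990.8 and 1804.8 with IL-2 and 1308.6, 1205.5 and 1196.2 with IL-12, a difference of -0.52 ± 0.30. Siglec1, a sialic acid receptor of macrophages, gave 214.4, 173.2 and 181.6 with IL-2 and 77.1, 89.0 and 113.6 with IL-12, a difference of -0.92 ± 0.58. Siglec1 also belongs to the myeloid markers above and, over all arrays, to the dimmer probe sets. Outside this group of genes, Ccr7, a chemokine receptor that guides T cells into lymph nodes, differed by -0.01 ± 0.41.

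**Figure D3:**
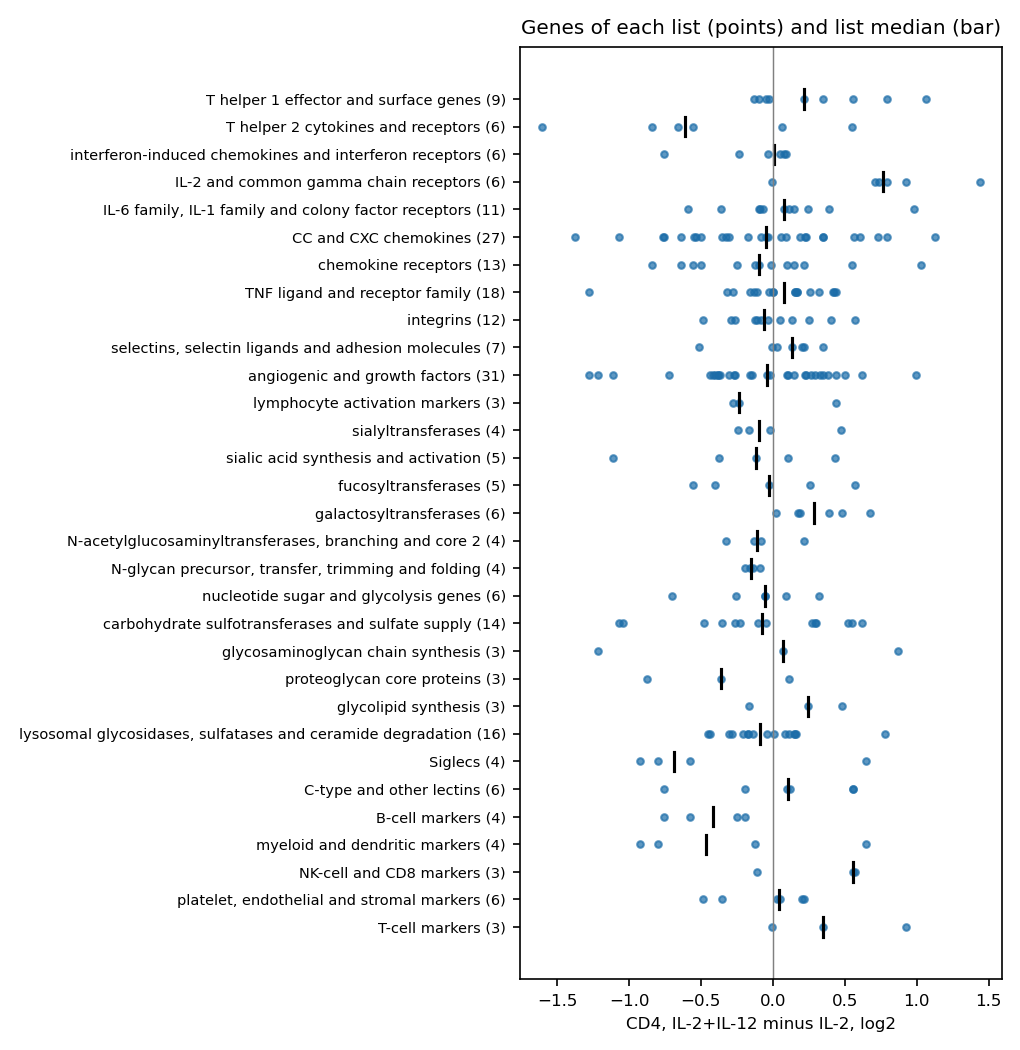
Log2 difference between IL-2 plus IL-12 and IL-2 alone in CD4 cells for the genes (points) of each list with 3 or more measured genes, the number in brackets, with the list median as a bar. Medians run from -0.69 in Siglecs to 0.77 in the IL-2 and common gamma chain group, and none of the genes plotted here passed the threshold.

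Among the 71 measured glycan genes the differences ran from -1.22 to 0.87 with a median of -0.06, and 29 of the 71 intervals lay within 1 log2 unit of 0, compared with 119 of all 375 named genes. No glycan gene was higher without overlap and 6 were lower without overlap, against 37 (4.96%) and 46 (6.17%) of all 746 probe sets. Cmah, the hydroxylase that turns the sialic acid Neu5Ac into Neu5Gc, gave 302.1, 276.6 and 329.6 with IL-2 and 202.7, 226.7 and 43.9 with IL-12. The lowest value, array L, sets much of the difference of -1.11 ± 0.52, which was -0.54, -0.27 and -2.53 within the letters D, E and L. Hs6st1, a sulfotransferase of heparan sulfate, was lower without overlap by -0.35 ± 0.24.

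Selectin ligand genes, which T helper 1 cells are known to use for entry into inflamed skin, showed no call. Selplg, the core protein of P-selectin ligand, gave 7791.1, 7311.9 and 8394.0 with IL-2 and 8792.5, 8246.4 and 8723.1 with IL-12, a difference of 0.13 ± 0.29. Fut7, the fucosyltransferase that completes selectin ligands, gave 76.8, 254.5 and 329.8 with IL-2 and 275.6, 257.9 and 340.6 with IL-12. IL-2 array D alone was low, the difference was 0.57 ± 0.66, and the interval from -0.78 to 1.92 leaves the direction unresolved. Gcnt1, the core 2 branching enzyme, was dim and differed by -0.08 ± 0.49, and the sialyltransferase St3gal6 differed by -0.24 ± 0.37.

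All 4 measured genes of N-glycan precursor synthesis, transfer and folding, of 34 listed, lay slightly below 0, between -0.19 and -0.09, with all 4 intervals within 1 log2 unit. They include Rpn2, a subunit of oligosaccharyltransferase, at -0.16 ± 0.23, Ganab, the glucosidase II alpha subunit, at -0.14 ± 0.23, and the folding chaperone gene Canx at -0.19 ± 0.33. All 6 measured galactosyltransferases, of 17 listed, lay above 0, with a median of 0.29 and none past the threshold. B4galt5, a lactosylceramide synthase, was at 0.68 ± 0.48 and C1galt1, which builds the core 1 O-glycan, at 0.19 ± 0.29. Of 16 measured lysosomal glycosidases, sulfatases and ceramide-degrading enzymes, 10 had intervals within 1 log2 unit of 0, and none passed. The 4 measured sialyltransferases, 5 fucosyltransferases and 14 sulfotransferase and sulfate supply genes held no call.

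The effect of IL-12 in CD4 cells was set against that in CD8 cells, from different arrays and by a test of the difference itself. Unlike the CD4 groups, the CD8 groups were not matched by letter, with D, E and L given IL-2 and D, H and L also given IL-12. Of these CD8 arrays only those lettered L shared a hybridisation run across the groups. No probe set passed that test (limma, 0%), and 30 (4.02%) had an unadjusted p under 0.05. In CD8 cells alone 2 probe sets passed (0.268%), Cxcr6 and the unnamed D83648_s_at, both higher with IL-12. Timp1 differed by 1.87 ± 0.55 in CD8 cells without passing (adjusted p = 0.31 by limma), and the CD4 difference exceeded it by 1.12 ± 0.78, with an interval from -0.50 to 2.74. The larger rise of Timp1 in CD4 cells is thus not shown to differ from that in CD8 cells, whose IL-2 arrays already held more Timp1 signal. D83648_s_at rose by 1.84 ± 0.30 in CD8 cells (limma, adjusted p = 0.0019), and its CD4 minus CD8 difference was -0.48 ± 0.43.

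Some genes differed in their response between the subsets at an unadjusted p under 0.05 but did not pass. Cxcr6 rose in CD8 cells, from 375.7, 449.0 and 220.9 to 1212.6, 1430.1 and 1368.9, by 1.94 ± 0.37 (limma, adjusted p = 0.00771). In CD4 cells it gave 600.9, 492.9 and 796.2 with IL-2 and 660.5, 782.6 and 728.8 with IL-12, with overlap. The difference of the effects was -1.73 ± 0.52 (limma, adjusted p = 0.553). For Il10 the CD8 arrays gave 736.7, 981.2 and 1291.9 with IL-2 and 2239.5, 3105.8 and 3398.7 with IL-12, a difference of 1.54 ± 0.36 that did not pass, and the CD4 effect was smaller by 1.17 on the log2 scale (SE 0.51). Il10ra went the other way, with a CD8 difference of -0.50 ± 0.29 and an effect difference of 1.23 ± 0.41. Lta differed by -1.32 ± 0.42 in CD8 cells, and the CD4 effect exceeded that by 1.29 ± 0.60. Cmah had opposite signs, -1.11 in CD4 and 1.37 ± 0.52 in CD8 cells, with an effect difference of -2.49 ± 0.74 (limma, adjusted p = 0.553). The CD8 array with IL-2 and IL-12 titled D carries another letter in its experiment file, as does a CD8 array with IL-2 and IL-4, and without both arrays the count past the threshold was also 0.

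**Figure D4:**
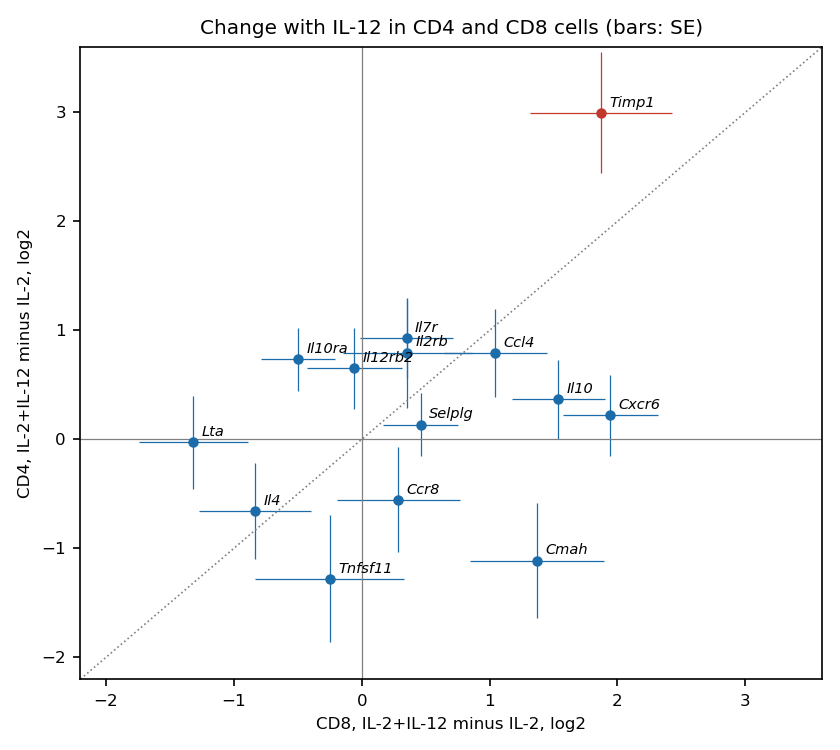
Log2 difference between IL-2 plus IL-12 and IL-2 alone in CD4 cells (vertical axis) and CD8 cells (horizontal axis) for 14 genes; bars are SE and the dotted line marks equal differences. Timp1 (red) lies at 2.99 in CD4 and 1.87 in CD8 cells, and Cxcr6 and Il10 lie to the right at 1.94 and 1.54.

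The CD4 cells with IL-12 were also compared directly with the CD4 cells given IL-4 in its place. In that comparison 10 probe sets passed (1.34%), 6 higher (0.804%) and 4 lower (0.536%) in the IL-12 condition. The 4 lower ones were both probe sets of Il4, Ccr4 and Cd83, a surface protein of activated lymphocytes and dendritic cells. The 6 higher ones were Timp1, Klrd1, Cxcl14, a chemokine of epithelia, and 3 unnamed probe sets. In 163 probe sets (21.8%) the arrays of the 2 conditions did not overlap.

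Il4 signals were 2009.9, 2091.2 and 1384.9 in the IL-4 condition, against 82.5, 162.1 and 141.4 with IL-12. All IL-4 arrays lay far above all IL-12 arrays. Il4 was lower with IL-12 by -3.69 ± 0.44 (limma, adjusted p = 3.04e-06) and by -4.73 ± 0.47 in its second probe set. Ccr4 gave 311.4, 409.8 and 448.9 with IL-4, far above its IL-12 arrays, and differed by -3.48 ± 0.41 (limma, adjusted p = 3.04e-06). The effects of IL-4 and of IL-12 against IL-2 alone share the IL-2 arrays. Il4 was among the 6 probe sets (0.804%) past the threshold with IL-4, where it rose by 3.03 ± 0.44, and it differed by -0.66 with IL-12. Ccr4 rose by 2.63 ± 0.41 with IL-4 and differed by -0.84 with IL-12.

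Timp1 was higher with IL-12 than with IL-4 by 2.20 ± 0.55 (limma, adjusted p = 0.0424), and none of its arrays overlapped. Klrd1 gave 711.6, 1805.6 and 882.7 with IL-12 and 314.4, 300.1 and 287.4 with IL-4, a difference of 1.74 ± 0.43 (limma, adjusted p = 0.039). The NK-cell and CD8 markers, to which Klrd1 belongs, summed to between 497.2 and 606.0 in the IL-4 condition and the myeloid and dendritic markers to between 148.2 and 157.6, both below every IL-12 array. The sums of the B-cell markers (589.0 to 892.2) and of the platelet, endothelial and stromal markers (763.7 to 840.8) overlapped those of the IL-12 arrays. The part of these marker differences in the comparison with IL-4 was not tested. Against IL-2 alone, Klrd1 differed by 0.55 ± 0.43 with IL-12 and by -1.19 ± 0.43 with IL-4. Cxcl14 was dim in the IL-4 condition, at 13.2, 18.2 and 42.6 against 136.7, 89.6 and 189.6 with IL-12. It differed by 1.94 ± 0.48, a call lost in 5 of 6 omissions of 1 array. A second probe set of Cxcl14 did not pass. Cd83 gave 360.2, 719.8 and 540.9 with IL-12 and 1639.2, 1729.0 and 741.6 with IL-4, where array C was near the IL-12 arrays, and was lower by -1.28 ± 0.28 (limma, adjusted p = 0.0173). The IL-4 arrays came from 3 scan days, and 1 of them, C, shared its day with IL-12 arrays D and E. With scan day as a block 4 probe sets passed, Il4 and Ccr4 among them. The Timp1 difference was then 3.01 (adjusted p = 0.123), that of Klrd1 1.80 (0.588) and that of Cd83 -0.50 (0.997). Leaving out single arrays in turn ended the call in 5 of 6 omissions for Timp1, 5 of 6 for Klrd1 and 4 of 6 for Cd83, and in 0 of 6 for Il4 and for Ccr4.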

How the data were processed

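RNA of splenic lymphocytes was measured on 30 custom Affymetrix arrays, in 10 groups of 3, with the group and a letter read from each title. The meaning of the letter is not stated in the labels. Descriptions of T-cell arrays mention B cells as well, per the labels, and the subset in the title was used.

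The authors deposited linear intensity values, 1 for each probe set on each array. How probe pairs were summarised and scaled is not given in the sources used here. No detection call was used, so a dim signal is not shown to lie above background. Of 752 probe sets, 6 controls were left out. Through RefSeq accessions in a gene table of GRCm38.p6, 450 of 746 probe sets were named (375 genes), 1 of them through a synonym, and 296 stayed unnamed. Suffixes of probe sets that can also match related transcripts occur in 223 (_s_at) and 16 (_x_at), and their signal can include such transcripts. Where a gene has several probe sets (75 genes), that with the highest mean over all arrays represents it.

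Log2(signal + 16) values, on which the changes of dim genes appear too small, were fitted as 10 group means over all 30 arrays with limma 3.58.1 (R 4.3.3), leaving 20 residual degrees of freedom. Tests were two-sided, with Benjamini-Hochberg adjustment over 746 probe sets, and errors are moderated standard errors. The fit was tested on simulated data. Genes were named by a rule: up to 15 per direction past the threshold, up to 10 per direction whose arrays do not overlap and whose higher group lies above the median probe set (for the CD4 minus CD8 difference, an unadjusted p under 0.05), 46 fixed genes of which 33 are measured, and up to 4 per list. Of 36 gene lists, 35 have a measured gene. The comparisons, genes and lists were chosen with earlier results of these data known. Counts and figures were made in Python 3.11.15 (pandas 2.3.3, numpy 2.4.6, matplotlib 3.10.9). Alternatives covered pseudocount, scaling, filters, arrays entered, batch terms and single arrays left out. Because the labels do not say what a letter is, the letters were not taken as pairs in the main test. The letter as a block was an alternative. Same-letter deviations from the group means correlated at 0.0502 (D), 0.0461 (E) and 0.185 (L). The best correlation with another letter was 0.0945, -0.0097 and -0.0462.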

Additional observations from a re-analysis of the deposited data

How the results depend on the processing

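With single arrays left out, the count of probe sets past the threshold for IL-12 in CD4 cells (1 in the main analysis) ran from 0 to 3 and the Timp1 change from 2.74 to 3.38, with 2 of 6 omissions keeping the call. The count was 0 with pseudocount 1 or with the 6 arrays alone. It was 2 (Timp1 and D83648_s_at) with pseudocount 64, without the dimmest 40% of probe sets, or with 1 value per gene. The letter as a replicate block gave 0 calls with the 6 arrays alone. With all arrays it gave the same 2 calls as a random block and as a fixed block, the last chosen after seeing the data. Timp1 lost its call with pseudocount 1 (3.29, adjusted p = 0.0524), with the 6 arrays alone (2.99, adjusted p = 0.105) and with the fixed replicate block on them (2.99, adjusted p = 0.418), both of which rest on fewer arrays, and kept it in 13 of 20 alternatives, its adjusted p ranging from 0.00174 to 0.418 by limma. For pseudocount 1 the cause was not tested. For IL-12 against IL-4 in CD4 cells the count (10) was 6 with the 6 arrays alone, 4 with scan day or scan period as a block, and 4 to 6 with single arrays left out. A fixed letter block could not be fitted there, because these groups share no letter. The CD4 minus CD8 count was 0 in all 27 alternatives run. Scaling by median centring or quantile normalization moved the median change in CD4 cells to 0.08 and -0.01. No value that passed changed sign. Signals near background and 3 arrays per group limit what could be detected: the 95% interval lay within 1 log2 unit of 0 for 249 of 746 probe sets, 201 of the 373 brighter and 48 of the 373 dimmer ones.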
